A study of Mus musculus with 2 samples.

Results

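Semaphorins, ephrins, Slits and netrins are cues that steer growing axons, vessels and migrating cells, and their receptors are the plexins, neuropilins, Eph kinases, Robos and Unc5 proteins. The genes of these families were taken by name from the array of the study, and 65 of the 27579 gene symbols with a usable probe matched, carried by 119 of 41174 probes. Of the 65 genes, 35 had several probes and 30 had 1, and each gene is represented by its brightest probe, by mean intensity. RNA from mouse embryonic fibroblasts (MEFs, connective tissue cells grown from embryos) was compared between the LATS2-/- and LATS2+/+ genotypes, here KO and WT, both from untreated cells of C57BL/6J mice. Lats2 is a kinase of the Hippo pathway. Each of the 2 arrays carried both RNAs in different dyes, KO in Cy5 and WT in Cy3 on the first array and the reverse on the second. The labels name no separate cultures and leave unsaid whether the same RNA preparations went onto both arrays, so each genotype was counted as 1 sample. On that reading the difference between the arrays shows hybridisation and dye error only, no p-value is given, and a difference belongs to the RNAs hybridised. Neither the deleted part of Lats2, the age of the embryos nor their number is given in the labels. In bulk RNA, a change in the number of cells of a type and a change in RNA per cell cannot be told apart.

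Of the 4 Lats2 probes, 3 did not follow the genotype labels. The brightest of its 4 probes gave a log2 ratio of KO over WT of 0.52 on the first array and 0.60 on the second, and 3 of the 4 were above 0 on both arrays. Those 3 lie close together, between chr14:56644080 and chr14:56645305, and the probes at 56644080-56644139 and 56644108-56644167 overlap. They are therefore not separate readings of the gene. The remaining probe, at chr14:56676512-56676571, gave -0.18 and -0.51. Whether any of these probes lies in the deleted part was not tested, so the directions below rest on the labels alone, and KO and WT RNA mean the RNAs labelled so. Some source names also spell the genotype LAT2-/-. Of the 10 fibroblast markers listed, 9 had a probe and all 9 passed the background flag in at least 1 RNA. Of these 9, 7 were below 0, with 5 lower and 1 higher by more than the SD between arrays on both, and none was called. Their median log2 ratio was -0.41, with Col1a1 at -0.56, Col3a1 at -0.49, Thy1 at -0.45 and Pdgfra at -0.41, and Fn1 apart at 0.89. Col1a2, Fap and Pdgfrb lay nearer 0, at 0.001, -0.08 and -0.10. Vim gave -0.89 at a dim probe. Its signals were 74.8 and 79.2 in KO RNA, above background on 1 array, and 130 and 156 in WT RNA. Their part in the results below was not tested. None of the 5 endothelial, 3 epithelial and 3 muscle markers with a probe passed, and of 7 neural and neural crest markers 5 passed, with log2 ratios from -0.11 to 0.40. Of these, Tubb3, a neuronal tubulin, had signals between 996 and 1121 in all 4 measurements. Among 4 myeloid markers, Cd68 and Csf1r passed, at log2 ratios of 0.14 and -0.05, while Ptprc did not.

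Class 3 semaphorins are secreted and act through neuropilins paired with A-type plexins, except that Sema3e binds Plxnd1 directly. The other semaphorin classes are mostly bound to the membrane. Ephrins are also held at the cell surface, A-type by a lipid anchor and B-type by a membrane span, so Eph receptors respond on contact and the ephrin-bearing cell can be signalled to in turn. Slits are large secreted proteins that repel cells carrying Robo receptors. Netrins attract through Dcc and Neo1 and repel through Unc5 receptors. Fibroblasts use these systems in cell sorting and contact repulsion.

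Promoters are shown first, for the matched genes with the largest differences and for Nrp2, picked for its CpG content. RefSeq windows (build GRCm38.p6) matched 56 of the 65 symbols, and the 250 bases before the annotated start were read for each, 5′ to 3′ on the strand of the gene. Sema3b, Sema3f, Sema6a, Slit1, Ntn1, Efnb3, Plxna1, Plxna4 and Unc5d were not matched. Capitals mark CG dinucleotides in the 4 windows below, those of the matched genes with the largest differences up (Sema3e and Epha4) and down (Epha3), and that of Nrp2, lower in KO RNA, for its high count.
Sema3e (chr5:14025026-14025275, plus strand): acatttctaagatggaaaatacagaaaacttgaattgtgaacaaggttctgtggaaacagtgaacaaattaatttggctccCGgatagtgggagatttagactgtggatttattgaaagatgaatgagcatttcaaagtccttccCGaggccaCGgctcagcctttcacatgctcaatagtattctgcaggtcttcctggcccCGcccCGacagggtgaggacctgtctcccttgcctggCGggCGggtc
Epha4 (chr1:77515089-77515338, minus strand): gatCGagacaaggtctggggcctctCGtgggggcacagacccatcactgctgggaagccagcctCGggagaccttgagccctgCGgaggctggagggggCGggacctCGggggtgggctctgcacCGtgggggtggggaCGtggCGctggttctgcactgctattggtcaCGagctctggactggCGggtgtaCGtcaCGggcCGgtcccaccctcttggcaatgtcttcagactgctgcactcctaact
Epha3 (chr16:63864176-63864425, minus strand): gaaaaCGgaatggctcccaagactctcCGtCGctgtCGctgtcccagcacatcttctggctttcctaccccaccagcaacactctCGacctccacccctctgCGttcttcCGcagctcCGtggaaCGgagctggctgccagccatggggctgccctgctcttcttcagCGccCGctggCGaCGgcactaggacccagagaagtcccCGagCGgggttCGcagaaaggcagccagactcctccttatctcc
Nrp2 (chr1:62703067-62703316, plus strand): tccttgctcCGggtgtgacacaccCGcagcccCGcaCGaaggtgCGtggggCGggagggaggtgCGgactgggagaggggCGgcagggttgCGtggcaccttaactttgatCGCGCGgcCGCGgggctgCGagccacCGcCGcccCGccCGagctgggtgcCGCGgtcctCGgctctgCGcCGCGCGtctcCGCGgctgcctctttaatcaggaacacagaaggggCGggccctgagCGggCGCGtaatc
The Sema3e window held 7 CG dinucleotides at 48% G and C, the Epha4 window 14, the Epha3 window 16 and the Nrp2 window 32 at 72.4% G and C. The median over all 32851 windows was 6 and over the 72 windows of guidance genes 16. Among the called genes defined below, the windows of the 4 matched higher genes held between 7 and 17 and those of the 6 matched lower genes between 11 and 32. The medians were 13.5 and 16.5, and Sema7a (higher) and Sema5a (lower) both held 17. Windows of uncalled guidance genes spanned both ranges, from 0 (a Sema6c window) to 46 (Epha8). Whether CpG content goes with the direction was not tested. The TEAD motif CATTCC, or GGAATG on the other strand, was searched because TEAD factors carry the output of the Hippo pathway. It was found in 7 of the 72 guidance gene windows (9.72%) and in 12.6% of all windows. Of the 10 called genes with a window, Epha3 held it, with its first base 244 bases before the start, and the other 9 held none in these letters. The uncalled genes with it in a window were Efnb2, Epha1, Epha2, Plxnb1, Plxnd1 and Sema4a. A match is a description of the sequence only.

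Of the 65 guidance genes, 51 stood clear of background on both arrays for 1 RNA or both, by the flag that the image software sets for each spot, and 44 did so for both RNAs. The other 14 were Sema4b, Sema4f, Sema4g, Sema6a, Plxnb3, Epha5, Epha6, Epha8, Epha10, Ephb1, Robo2, Ntn1, Unc5a and Unc5d. A gene was called when its ratio was at least 2-fold in 1 direction on each array and it was above background in the RNA where it was higher. By this rule 6 of the 51 (11.8%) were higher in KO RNA, against 2.95% of the 15877 genes above background, and 7 of the 51 (13.7%) were lower, against 2.61%. At the level of probes, 9 of the 80 above background were called higher and 9 lower, beside 2.48% and 2.08% of all 24186 probes above background. The 6 higher genes were Sema3e, Sema3b, Sema7a, Epha4, Plxna1 and Efnb1. The 7 lower genes were Epha3, Sema3f, Sema5a, Nrp2, Robo1, Ephb2 and Ephb3. The median log2 ratio of the 51 genes was -0.04 and that of all genes above background -0.00367. The median of the absolute log2 ratio was 0.43 for the guidance genes and 0.23 for all genes.

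**Figure D1:**
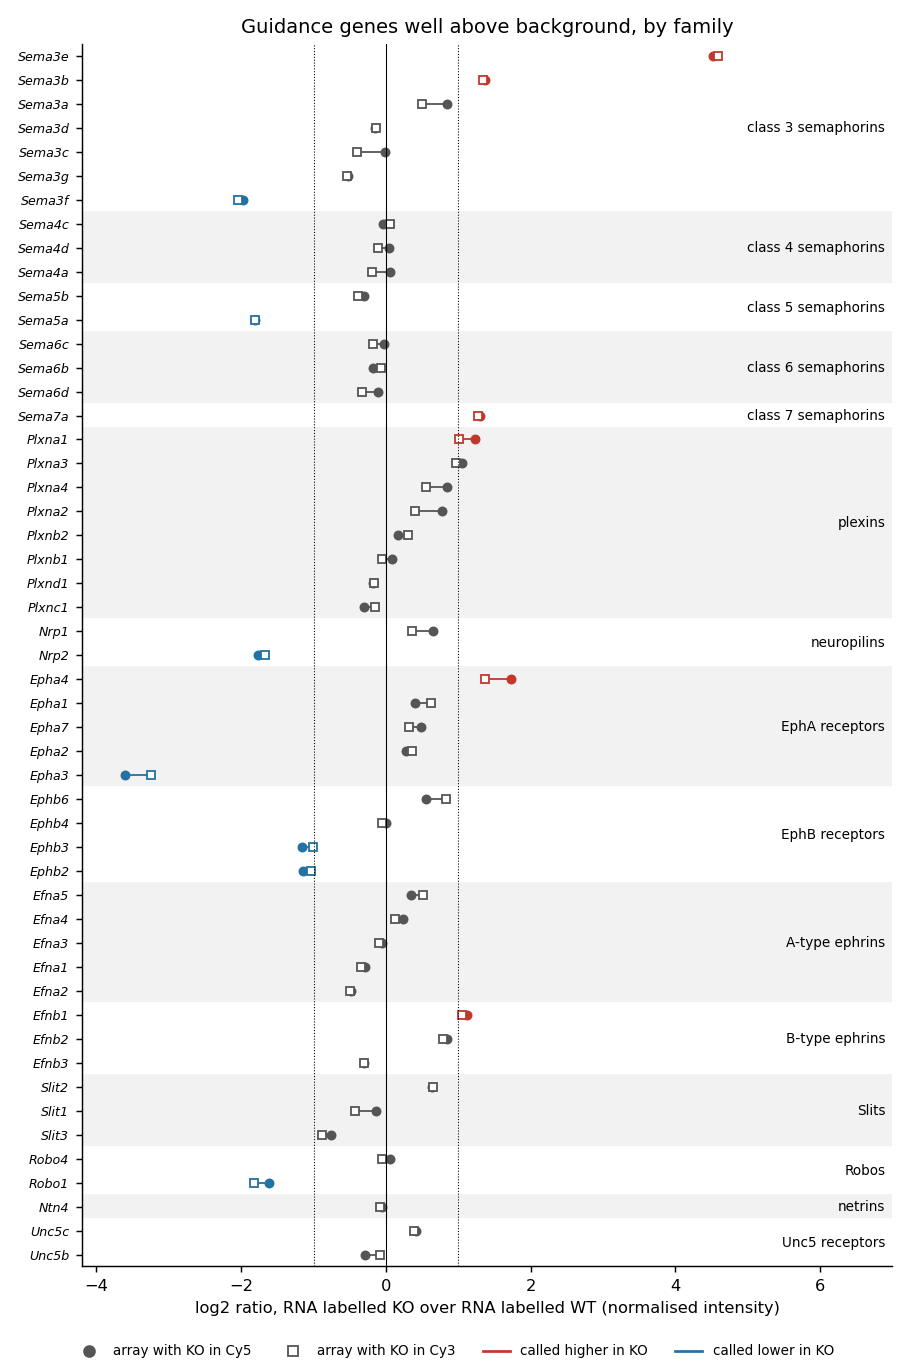
Log2 ratio of KO over WT RNA (horizontal axis) for the 51 guidance genes well above background, grouped by family. Filled circles are the array with KO in Cy5 and open squares the array with KO in Cy3; dotted lines mark 2-fold. Sema3e and Epha3 lie farthest from 0 and the A-type plexins all lie above 0.

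After loess normalisation the arrays agreed closely for these genes. The log2 ratios of the 51 guidance genes had the same sign on both arrays in 46 cases, and the widest gap between arrays was 0.39. The exceptions were Sema4a, Sema4c, Sema4d, Plxnb1 and Robo4, all within 0.07 of 0 in the mean. The pooled SD of a single probe between arrays was 0.13 on the log2 scale over all usable probes and 0.13 over the guidance genes. Across the 51 genes, which are not independent replicates, Pearson's r between the arrays was 0.989 and Spearman's rho 0.954. Across all 15877 genes above background they were 0.945 and 0.871. Both arrays held 45018 spots and none was saturated.

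**Figure D2:**
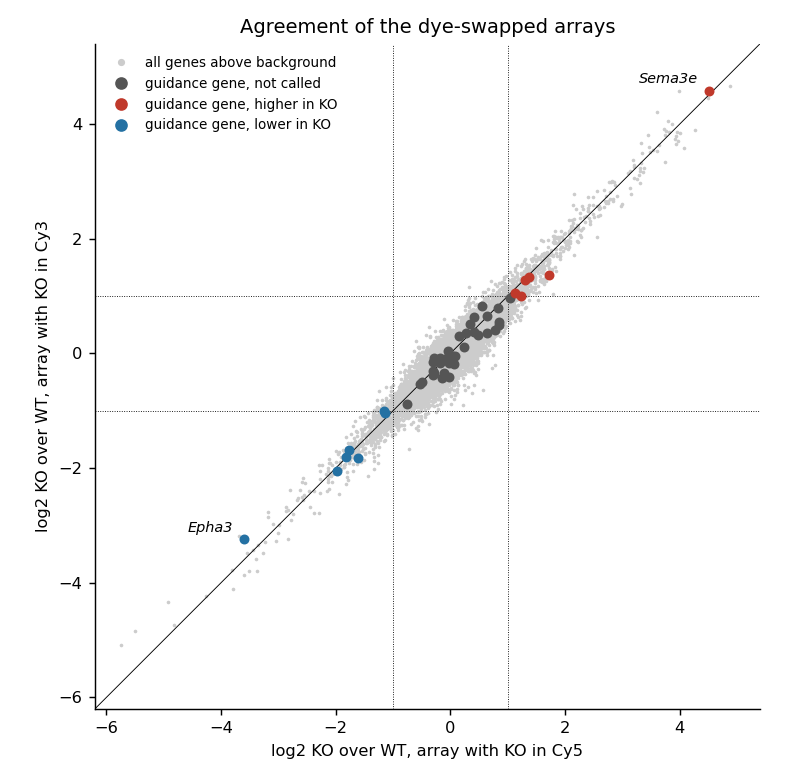
Log2 ratio of KO over WT on the array with KO in Cy3 (vertical axis) against the array with KO in Cy5 (horizontal axis). Grey points are the 15877 genes above background, dark points guidance genes that were not called, red and blue points the 6 called higher and the 7 called lower; dotted lines mark 2-fold and the solid line equality.

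Among the secreted class 3 semaphorins, Sema3e, Sema3b and Sema3f changed by more than 2-fold, in different directions. Sema3e, a cue for vessels and axons, showed the largest ratio of any guidance gene. Its signal was 2681 and 2052 in the KO RNA and 117 and 85.4 in the WT RNA, where a signal is the normalised intensity in arbitrary units, the first array is given first, and an added offset of 50 is included. Both KO signals stood far above both WT signals, which lay close to the offset. The log2 ratios were 4.52 and 4.59, a mean of 4.55 or 23.5-fold, for a probe at chr5:14260029-14260088 on build NCBI36 (mm8), the build of all probe positions here. The offset pulls ratios of dim spots towards 0, and the image software's own ratio, which has none, gave 6.05 or 66.1-fold. A second Sema3e probe, above background in WT RNA on 1 array, gave 3.25 and 3.48. Another gave a mean of 1.34, or 2.54-fold, and was not above background in WT RNA on either array. The last, named from a cDNA clone, was above background in neither RNA and gave 0.04.

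Sema3b, described as a tumour suppressor, had signals of 343 and 282 in the KO RNA and 132 and 111 in the WT RNA (log2 1.37 and 1.34, mean 1.36; chr9:107456662-107456721). The image software's ratio for Sema3b was larger at 2.07. Sema3f, a repellent read by Nrp2, lay 83.8 kb away by its probe and went the other way. The Sema3f signals were 276 and 273 in the KO RNA and 1089 and 1124 in the WT RNA (log2 -1.98 and -2.04, mean -2.01; chr9:107540558-107540617), and its other probe gave -2.73 and -2.49. These neighbours on chromosome 9 therefore differed in direction on both arrays.

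The other 4 class 3 semaphorins were not called. Sema3a, the collapsing factor for growth cones, gave 0.85 and 0.49 with signals of 1274 and 1049 in the KO RNA and 709 and 745 in the WT RNA. Sema3g gave -0.52 and -0.54, with a software ratio of -1.37, and Sema3c -0.02 and -0.40. Sema3d was above background in WT RNA alone and gave -0.16 and -0.14, close to the SD between arrays of 0.13. Sema3a, Sema3c and Sema3d lie on chromosome 5 with Sema3e, their probes 654 kb, 2980 kb and 1668 kb from that of Sema3e, and none of the 3 came near its ratio.

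Of the semaphorins bound to the membrane, Sema5a fell and Sema7a rose. Sema5a, a protein with thrombospondin repeats, had signals of 223 and 226 in the KO RNA and 784 and 787 in the WT RNA (log2 -1.82 and -1.80, mean -1.81; chr15:32640693-32640752). KO signals were below both WT signals, but the second probe, above background in WT RNA alone, gave -0.46 and -0.17, so the mean over probes was -1.06 and no longer a call, being short of 2-fold on the second array. Its relative Sema5b gave -0.31 and -0.38 at the brightest probe, while its other 2 probes gave -0.90 and -1.29, and -0.94 and -1.03, short of 2-fold on 1 array each. Sema7a, a lipid-anchored semaphorin that also acts on immune cells, had signals of 505 and 528 in the KO RNA and 205 and 218 in the WT RNA (log2 1.30 and 1.27, mean 1.29; chr9:57760937-57760996). Of class 4, Sema4a, Sema4c and Sema4d were above background and lay between -0.07 and 0.01. Sema4c, the highest of them, and Sema4a, the lowest, changed sign between arrays, and the second Sema4c probe gave -0.53 and -0.65. Of class 6, Sema6b, Sema6c and Sema6d lay between -0.22 (Sema6d) and -0.10 (Sema6c), and the software's ratio for Sema6d was -0.90.

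**Figure D3:**
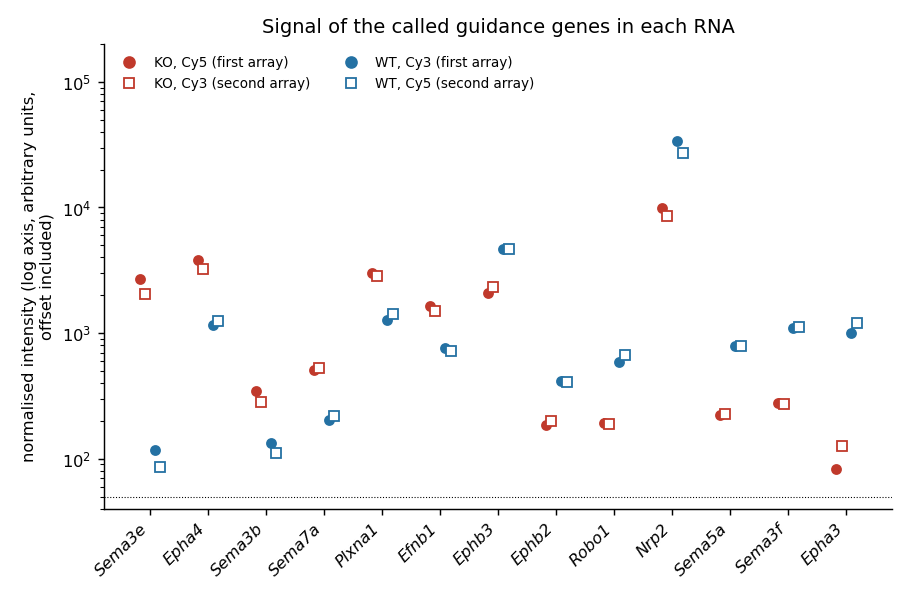
Normalised intensity (vertical axis, log scale, arbitrary units, offset of 50 included as the dotted line) of the 13 called guidance genes in KO RNA (red) and WT RNA (blue), by array. Circles are the first array and squares the second. A call requires at least a 2-fold difference on each array, so the gap between KO and WT points follows from the rule.

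Of the receptors for semaphorins, Nrp2 fell and Plxna1 rose by the 2-fold rule. Nrp2, the co-receptor for Sema3f and for VEGF-C, had signals of 9910 and 8499 in the KO RNA and 33652 and 27194 in the WT RNA. Both WT signals were well above both KO signals, and the log2 ratios were -1.76 and -1.68, a mean of -1.72 or 30.3% of the WT level (chr1:62752831-62752890). The software's ratio was -1.73. Nrp1, the co-receptor for Sema3a and VEGF-A, gave 0.64 and 0.36, with 0.70 and 0.61 as the means of its other 2 probes. It was above 0 on both arrays at all 3 probes but below the 2-fold line.

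All 4 A-type plexins, which carry the signal of class 3 and class 6 semaphorins into the cell, were above 0 on both arrays at their brightest probe. Plxna1 had signals of 3013 and 2841 in the KO RNA and 1281 and 1415 in the WT RNA (log2 1.23 and 1.01, mean 1.12; chr6:89282175-89282234), yet its second probe gave 0.24 and 0.27. Plxna3 fell just outside the rule at 1.05 and 0.96, and its second probe gave 0.13 and 0.12. Plxna4 gave 0.84 and 0.56 and Plxna2 0.78 and 0.40. A second Plxna4 probe gave 0.60 and 0.42, and another, above background in neither RNA, gave a mean of -0.06. The subfamily was singled out after its values were seen. Its 4 genes were above 0 in each of 9 ways of processing, from 0.38 to 1.23. The 9 include each array alone, and the authors' log2 table, which repeats the software's ratio. Among the other plexins, Plxnb2 gave 0.23 and Plxnb1 0.02. Plxnd1, the Sema3e receptor, gave -0.18 and -0.16, and Plxnc1, the Sema7a receptor, gave -0.30 and -0.16, the lowest of the family. Both were dim, with signals from 106 to 125 for Plxnd1 and from 86.0 to 106 for Plxnc1. The software's ratios for them were -0.44 and -0.69.

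The Eph kinases held the largest fall. Epha3, a receptor for A-type ephrins, had signals of 82.5 and 127 in the KO RNA and 1003 and 1202 in the WT RNA. The WT signals were far higher on both arrays, and the log2 ratios were -3.60 and -3.24, a mean of -3.42 or 10.7-fold lower in KO RNA (chr16:63487531-63487590). The software's ratio was -4.83 or 28.4-fold. A second probe gave -2.02 and -2.04 and the remaining probe -0.93 and -1.02, where both had KO signals above background on 1 array only. The software's ratios for them were -4.55 and -3.15. Epha4, which binds ephrins of both types, went the other way with signals of 3843 and 3245 in the KO RNA and 1163 and 1259 in the WT RNA (log2 1.72 and 1.37, mean 1.55; chr1:77251261-77251320), and its second probe was also called, at 1.38 and 1.11. Epha1, Epha7 and Epha2 gave means of 0.52, 0.41 and 0.32, all above 0 on both arrays and none called. The software's ratio for Epha1 was 1.78, and its WT signal was above background on 1 array.

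Both called EphB receptors, which sort cells and shape synapses through B-type ephrins, were lower in KO RNA. Ephb3 had signals of 2076 and 2321 in the KO RNA and 4650 and 4649 in the WT RNA (log2 -1.16 on the first array, mean -1.08; chr16:21136935-21136994), just inside the rule on the second array. Ephb2 had signals of 186 and 201 in the KO RNA and 413 and 412 in the WT RNA (log2 -1.15 and -1.03, mean -1.09; chr4:135926763-135926822), and its second probe, not above background in KO RNA, gave -0.54 and -0.16. Ephb4, the partner of Efnb2 in veins, gave -0.00 and -0.06. Ephb6, which lacks kinase activity, was the highest of the family at 0.55 and 0.84, with a software ratio of 1.42.

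Their ligands ran differently. Efnb1 had signals of 1648 and 1498 in the KO RNA and 758 and 725 in the WT RNA (log2 1.12 and 1.05, mean 1.08; chrX:95350885-95350944), a call on both arrays. Efnb2, the arterial ephrin, gave 0.84 and 0.78 with signals of 1789 and 1727 in the KO RNA and 1001 and 1003 in the WT RNA, separate on both arrays but under 2-fold, and 0.33 and 0.48 at its other probe. Efnb3 gave -0.30 and -0.30. Efnb1 and Efnb2 were above 0 and Efnb3 below it in all 9 ways of processing, which share the same intensities and are not independent. No A-type ephrin was called: Efna5 was the highest at 0.35 and 0.52 and Efna2 the lowest at -0.49 and -0.49. Efna1 was above background in WT RNA alone and gave -0.28 and -0.34, or 1.24-fold higher in WT RNA. The software's ratios were -1.15 for Efna2 and -2.55 for Efna1.

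In the Slit and Robo families the receptor Robo1 fell and no Slit passed the rule. Robo1 had signals of 194 and 189 in the KO RNA and 593 and 670 in the WT RNA (log2 -1.61 and -1.83, mean -1.72; chr16:72928166-72928225), or 30.4% of the WT level. A second probe, named from a cDNA clone, was above background in neither RNA and gave -0.07. Robo2, whose probe is 875 kb away on the same chromosome, was not above background with any of its 6 probes, and Robo4, the endothelial Robo, read near the offset at 0.05 and -0.05. Slit2 gave 0.64 and 0.65 with signals of 3394 and 3434 in the KO RNA and 2175 and 2191 in the WT RNA. Slit3 gave -0.76 and -0.88 with signals of 12555 and 11393 in the KO RNA and 21300 and 20925 in the WT RNA, and -0.86 and -0.95 at its second probe. Slit2 and Slit3 went in opposite directions on both arrays, while Slit1 gave -0.14 and -0.43. Of the netrin system Ntn1 was not above background, Ntn4 gave -0.05 and -0.08, Unc5b -0.28 and -0.08 and Unc5c 0.41 and 0.38.

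**Figure D4:**
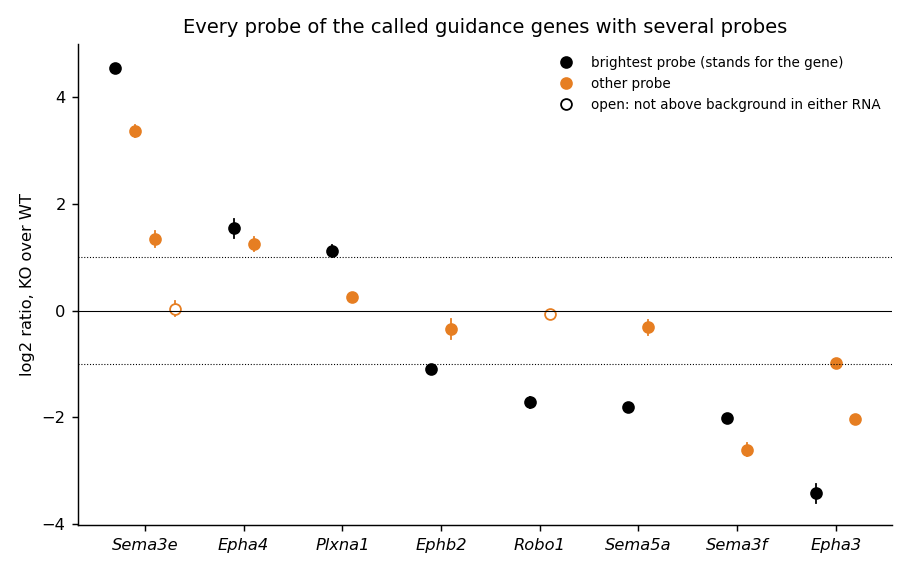
Log2 ratio of KO over WT (vertical axis) for every probe of the 8 called guidance genes with several probes. Points are the mean of both arrays and lines join the arrays; black marks the brightest probe and orange the others. A further probe each of Sema3e, Plxna1, Ephb2, Robo1, Sema5a and Epha3 lay between 0 and the call line.

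Ligands and receptors can be set beside each other pair by pair, with no test of the pairing. The pairs were listed with earlier results of these data known. Sema3e rose while Plxnd1 was at -0.17 in the mean. Sema7a rose while Plxnc1 was at -0.23. Sema3f and its co-receptor Nrp2 both fell, at -2.01 and -1.72, a pair chosen after the values were seen. Sema4d and Plxnb1 were near 0, at -0.04 and 0.02. Slit3 and Robo1 were below 0 while Slit2 was above it. Ephb2 and Ephb3 fell while Efnb1 rose, a set that was not among the listed pairs. Other members did not share this, with Ephb4 at -0.03, Ephb6 at 0.69 and Efnb3 at -0.30. Epha4, which also binds B-type ephrins, was at 1.55. Of the netrin system, Ntn1 was not above background, Neo1 was at -1.38, Unc5b at -0.18 and Unc5c at 0.40.

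A list of 56 further genes (other receptors and co-receptors, cytoplasmic mediators and VEGF family members) had 55 with a probe and 45 above background. Of these 45, 1 was called higher and 1 lower, beside 2.95% and 2.61% of all genes, and their median log2 ratio was 0.10. Flrt2, a membrane protein that binds Unc5 receptors, had signals of 4849 and 4493 in KO RNA and 1998 and 2019 in WT RNA (log2 1.28 and 1.15), with 0.68 at its second probe. Neo1, a receptor of netrins and repulsive guidance molecules, had signals of 3297 and 3121 in KO RNA and 8372 and 8357 in WT RNA (log2 -1.34 and -1.42). Its 4 probes ranged from -1.38 to -0.21 in the mean. Rac1, Rhoa and Cdc42, the GTPases on which guidance receptors converge, gave means of 0.38, -0.35 and -0.22. Dcc was not above background.

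**Figure D5:**
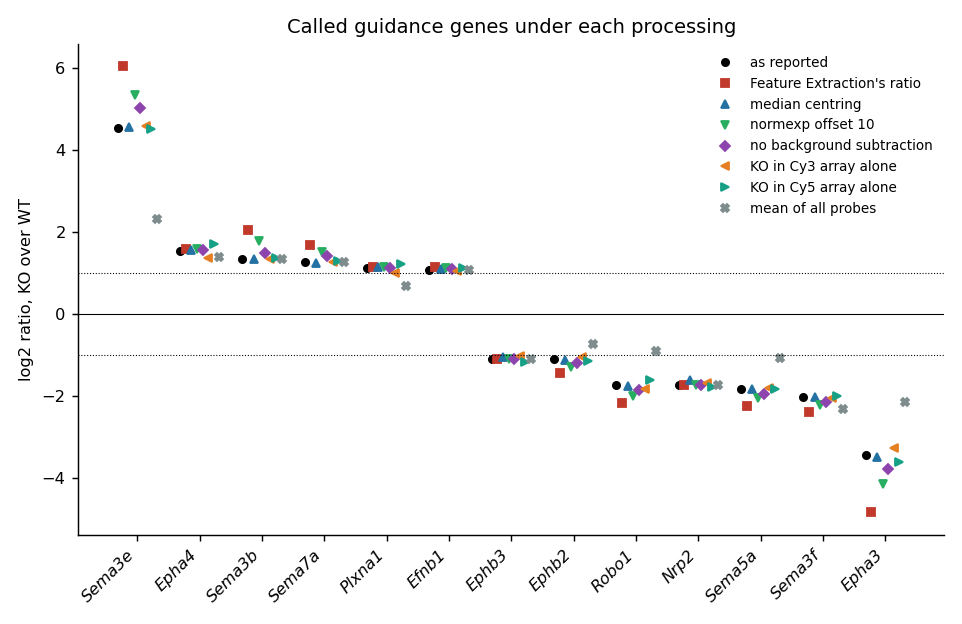
Log2 ratio of KO over WT (vertical axis) of the 13 called guidance genes under each processing; dotted lines mark 2-fold. All 13 kept their direction in every case, which the call rule fixes for each array alone. The other ways use the same intensities. The image software's ratio reached 6.05 for Sema3e and -4.83 for Epha3.

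Processing changed the number of calls and not their direction, which the call rule and the shared intensities largely fixed. The 13 genes were called under the software's own ratio too, with 7 more: Plxna3, Epha1 and Ephb6 higher, and Sema3d, Sema3g, Efna1 and Efna2 lower. With the mean of all probes in place of the brightest, Sema5a, Plxna1, Ephb2 and Robo1 lost the call. Sema3b, Sema7a, Nrp2, Ephb3 and Efnb1 rest on 1 probe each, so this change could not affect them. With each array centred on its median in place of loess, 5 genes kept it (Sema3e, Sema3f, Sema5a, Epha3 and Robo1). The other 8 lost it since 1 array alone then read under 2-fold, as for Efnb1 at 1.91 and 0.29, while no mean moved by more than the SD between arrays.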

How the data were processed

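Two-colour arrays of cRNA from KO and WT MEFs were analysed, 2 in all with the dyes exchanged. The guidance families, gene lists, motif and comparisons were chosen with earlier results of these data known. Per the labels, the authors read the arrays with Agilent Feature Extraction 10.5.1.1. The authors deposited mean spot signals and local background medians as intensity (arbitrary units). In the deposited files stand too the software's log10 Cy5 over Cy3 ratio, computed after its own background and dye correction, with other values such as flags for spots well above background. A further deposited table gives log2 ratios by probe and matched the software's ratio turned to KO over WT (r of 0.9999 and 0.9996). No column was left unmapped (0).

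Intensities were corrected in limma 3.58.1 under R 4.3.3 by normexp with an offset of 50, then by loess within each array. Control spots (1639 of 45018) and spots with outlier flags (390 and 378) were left out. The sign of the second was turned, and values are the mean of both, as log2 KO over WT. Signals per RNA are channel values after loess and quantile normalisation of the mean intensity of each spot. That step gives both arrays the same distribution of mean intensities. A call needs a log2 ratio of at least 1 in size on each array, in the same direction, and the background flag on both arrays in the RNA that was higher. Where a dim RNA was not above background on either array, the measured ratio is given. The lowest signal above background did not exceed the dim value for Sema3d, Efna1 or the Sema3e probe. The number of arrays limits the precision. The pipeline was tested on simulated data. Named genes are all called genes and the highest and lowest above background in each family. Promoters are from RefSeq, and the place of probes in exons or UTRs was not analysed here. Alternatives were the software's ratio, the deposited table, median centring, an offset of 10, no background subtraction, the mean of all probes, each array alone, a 1.5-fold threshold, no background flag and the methods' t-test.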

Additional observations from a re-analysis of the deposited data

How the results depend on the processing

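Of 30 named guidance genes, 27 kept their sign under all 8 other ways of computing the ratio, and the 3 that did not (Sema4a, Sema4c and Robo4) lay near 0. Guidance genes called higher numbered 6 as reported, 1 with median centring and 0 by the methods' t-test after Benjamini-Hochberg adjustment. Guidance genes called lower numbered 7 as reported, 11 by the software's ratio, 11 by the authors' table, 4 with median centring, 4 with the mean of all probes and 0 by the adjusted t-test. Unadjusted, at the methods' threshold of 0.05 with 2-fold, that t-test gave 5 higher and 7 lower. It takes the dye-swapped arrays as replicates, so it covers hybridisation and dye error only, and with 1 residual degree of freedom 1 of 40875 probes passed after adjustment, so its counts of 0 say nothing about the stability of the calls. With either array alone the counts were 6 to 7 higher and 7 lower. No call could be lost in this way, since a call needs both arrays. The 1.5-fold threshold gave 9 higher and 8 lower, and a gene called by any of its probes, chosen after seeing the data, gave 6 and 7. The median of the guidance genes ranged from -0.11 to 0.02 over its alternatives, and from -0.07 to -0.0025 with either array alone. Of 240 values of named genes recomputed, 169 moved by less than the SD between arrays, 71 by more and 0 called genes changed sign. All ways use the same intensities, so a kept sign is not independent support. The software's ratio and the offset of 10 enlarged 15 and 13 of the 30. Dim signals limit Sema3e, Sema3b and Epha3 in size. Slide as a block could not be fitted, since both arrays share 1 scan identifier. No paired analysis was possible because the arrays were taken as a dye swap and counted as 1 sample per genotype, which the labels do not settle.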
